A study of Mus musculus with 7 samples.

Results

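The genes of prostaglandin synthesis, transport and breakdown were followed in 7 libraries of mouse prostate RNA. They were named as a list of 10: Ptgs1, Ptgs2, Ptges, Ptges2, Ptgds, Hpgds, Ptgis, Tbxas1, Slco2a1 and Hpgd. All 10 were found by symbol among the 16019 genes in the data. Every library came from a mouse with experimental autoimmune prostatitis (EAP), an autoimmune inflammation of the gland. The treated group of 4 samples received LIT927, which neutralises the chemokine CXCL12 by binding it, by daily intraperitoneal injection at 25 mg/kg for 14 days. The vehicle group of 3 received the solvent, methyl-β-cyclodextrin, for the same 14 days. The labels state neither strain nor age, nor whether each library was 1 animal. The p-values therefore reflect sample-to-sample spread only, some of which may be technical. As every group carried the disease, no comparison with an uninflamed gland was made.

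Prostaglandins are lipid mediators of inflammation, pain and smooth muscle tone, and they are abundant in the fluids of the male reproductive tract. A cyclooxygenase turns arachidonic acid into the intermediate prostaglandin H, and separate terminal synthases turn that intermediate into prostaglandin E, D or F, prostacyclin or thromboxane. An uptake carrier then brings prostaglandins into cells, where a dehydrogenase inactivates them.

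Levels are in FPKM, a fragment count corrected for gene length and library size. They can be compared between genes only as far as the gene lengths used are right. The whole fragments behind them summed to 32043757 to 35257990 per library, so total depth was even. The room left for most genes was not. The 10 most abundant genes held from 22.2% of the summed FPKM (vehicle replicate 1) to 72.3% (vehicle replicate 4). The prostate label was checked against probasin (Pbsn), a secretory protein of the mouse prostate, which lay between 129 and 11311 FPKM. Transcripts of neighbouring organs were abundant as well. The summed level of 8 seminal vesicle markers was 51017 to 563781 FPKM with vehicle and 142402 to 301495 FPKM with LIT927. Svs1 alone was at 80.9, 11985 and 25355.5 FPKM in vehicle replicates 1, 3 and 4. In LIT927 replicates 1 to 4 it was at 123, 38.8, 11062.5 and 243 FPKM. Svs3a, Svs3b, Svs4, Svs6 and, narrowly, Svs5 were highest in the same libraries as Svs1, but Svs2 and Pate4 were not. Those libraries, vehicle replicates 3 and 4 and LIT927 replicate 3, were the lowest in Ptgs1, Ptgs2, Ptges, Slco2a1 and Hpgd. The link was not tested. The urothelial gene Upk1a reached 172 and 253 FPKM in the replicates numbered 3 of vehicle and LIT927, against at most 10.1 FPKM elsewhere. The other urothelial markers were highest in this pair too, except Upk1b, at 38.3 and 19.7 FPKM against 27.3 FPKM in LIT927 replicate 4. So were the prostate genes Sbp (53139 and 114916 FPKM, at most 5316 elsewhere) and Msmb (1020 and 337 FPKM, at most 6.62 elsewhere), but not Pbsn or Tgm4. The pair is called uroplakin-high below as a label only, and results are given with and without it.

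Several members varied together from library to library, as described below, so their promoter sequences are shown to let the genes be compared. RefSeq start sites on GRCm38.p6 were matched for 9 of the 10 members; Ptgis had no entry. The 250 bases before the start are printed for the 4 co-varying members whose window overlaps no exon of the gene itself in GENCODE M21. Capitals mark matches, on either strand, to 6 short motifs: TATAAA (the TATA box), CACGTG (an E-box), TGACGT (core of the cyclic AMP response element), GGGCGG (the GC box), CCAAT and AGAACA (part of the site bound by androgen and glucocorticoid receptors).
Ptgs2 at chr1:150099781-150100030, plus strand: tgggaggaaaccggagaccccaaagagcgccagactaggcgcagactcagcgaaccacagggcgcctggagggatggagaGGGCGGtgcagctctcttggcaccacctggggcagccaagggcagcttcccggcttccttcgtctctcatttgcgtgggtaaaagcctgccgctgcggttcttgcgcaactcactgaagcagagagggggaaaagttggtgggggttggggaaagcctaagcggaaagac
Ptges at chr2:30903298-30903547, minus strand: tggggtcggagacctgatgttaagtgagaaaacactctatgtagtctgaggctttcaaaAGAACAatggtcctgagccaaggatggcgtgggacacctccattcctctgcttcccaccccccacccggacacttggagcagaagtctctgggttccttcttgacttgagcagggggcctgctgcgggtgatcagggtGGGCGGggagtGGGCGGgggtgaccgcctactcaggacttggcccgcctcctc
Ptgs1 at chr2:36230176-36230425, plus strand: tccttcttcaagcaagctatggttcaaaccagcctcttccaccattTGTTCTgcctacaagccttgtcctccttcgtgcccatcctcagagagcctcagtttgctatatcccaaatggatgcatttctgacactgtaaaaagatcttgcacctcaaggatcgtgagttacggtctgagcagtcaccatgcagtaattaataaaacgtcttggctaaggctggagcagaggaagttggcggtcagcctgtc
Hpgd at chr8:56294302-56294551, plus strand: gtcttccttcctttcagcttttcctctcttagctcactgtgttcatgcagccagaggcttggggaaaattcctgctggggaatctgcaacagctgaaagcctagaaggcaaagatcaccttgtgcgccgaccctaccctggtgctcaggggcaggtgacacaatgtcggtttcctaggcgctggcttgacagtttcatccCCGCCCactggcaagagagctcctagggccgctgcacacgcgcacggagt
Matches were searched over the whole RefSeq window of 300 bases, which adds 50 bases after the start that are not printed. GGGCGG matched in Ptgs2, Ptges and Hpgd, and 35.7% of the 32851 windows hold it. AGAACA matched in Ptges and Ptgs1, against 19.0% of windows. In the bases after the RefSeq start, Ptgs2 holds TGACGT (7.51% of windows) and CACGTG (7.15% of windows), which overlap each other, and Hpgd holds TATAAA (13.6% of windows). The printed Hpgd window ends at 56294551, while GENCODE starts the gene at 56294585. By GENCODE its TATAAA therefore lies before the start. CCAAT, present in 37.4% of windows, matched in none of these 4 genes. No motif of the 6 matched in all 4 genes. Slco2a1, which also co-varied, is not printed because its window overlaps its own exon. Its window was searched and matched GGGCGG and TATAAA, both before the start.

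Hpgd, Ptgs2, Ptges and Slco2a1 averaged 174, 158, 131 and 122 FPKM over the 7 libraries, above 97.7% to 98.4% of all genes. Ptgds and Ptgs1 averaged 31.6 and 24.9 FPKM, Ptges2 and Ptgis 8.08 and 7.84 FPKM, and Hpgds and Tbxas1 0.241 and 0.0282 FPKM. Hpgds and Tbxas1 ranked the ninth and the tenth in every library. The order at the top changed: Ptgs2 ranked 1 to 3 in 5 libraries and 8 in vehicle replicate 3 and LIT927 replicate 3. Among the 4 most abundant members the spread between libraries was larger than the gaps between their means. The order also depends on the gene lengths implied by the deposited values. These were 4451 bases for Slco2a1, against 13545 in its GENCODE exons, and 1952 against 5058 for Ptges2. A length shorter than the exons gives a higher FPKM. The implied length was longer than the exons for Ptgs1, Hpgd and Tbxas1.

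**Figure D1:**
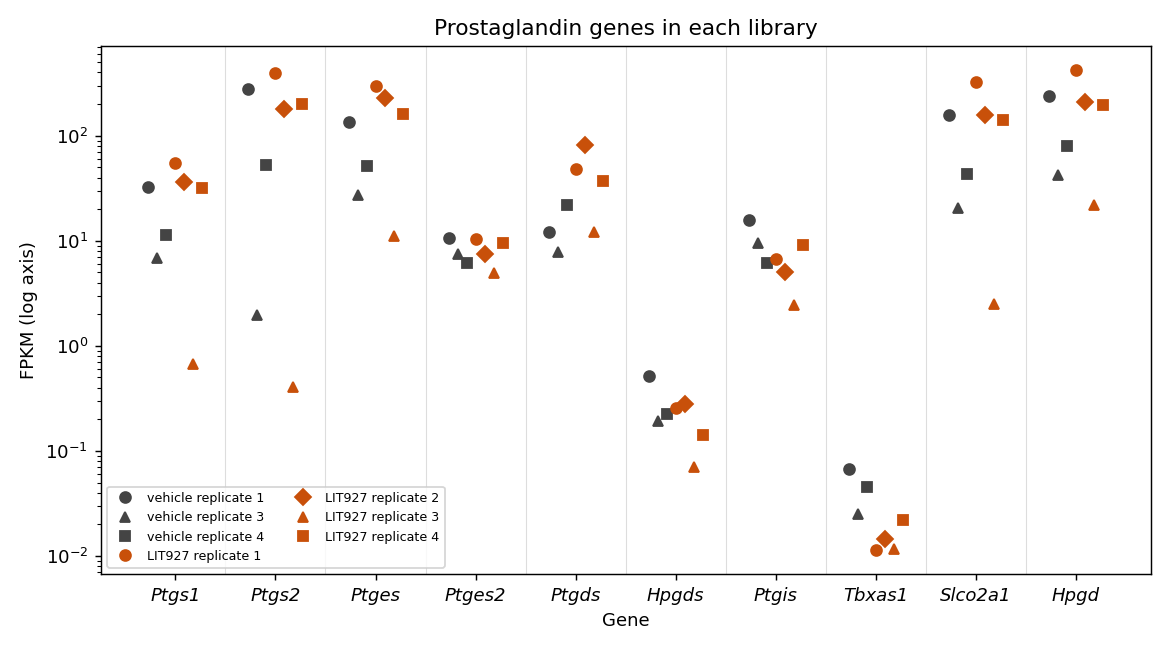
FPKM of the 10 genes (log axis) in each library; every point is 1 library, dark grey for vehicle and orange for LIT927, with the replicate number shown by the symbol. Replicate 3 of LIT927 lies lowest for 8 of the 10 genes, while the dark and orange points overlap for every gene but Tbxas1.

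The cyclooxygenases come first in the pathway. Ptgs2 encodes COX-2, the cyclooxygenase best known for induction by inflammatory stimuli (mm10 chromosome 1, 150100031 to 150108227, plus strand). It was at 275, 1.97 and 52.5 FPKM in vehicle replicates 1, 3 and 4 and at 396, 178, 0.405 and 201 FPKM in LIT927 replicates 1 to 4. Both groups thus held libraries with abundant Ptgs2 and a library with almost none, and the groups overlapped. The highest library stood 977-fold above the lowest, on 57700 and 58 fragments. Only 0.310% of the 10970 genes with a mean of at least 1 FPKM and no zero had a larger range, and their median range was 2.32-fold. The means were 110.0 ± 146 FPKM (SD, n = 3) with vehicle and 194 ± 162 FPKM (SD, n = 4) with LIT927. The difference in log2(FPKM + 1), LIT927 minus vehicle, was 0.92 (SE 2.22; 95% interval -4.22 to 6.07; limma adjusted p = 0.998; exact permutation p = 0.629, two-sided).

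Ptgs1 encodes COX-1, the cyclooxygenase present in many resting tissues (chromosome 2, 36230426 to 36252272, plus strand). It was at 32.2, 6.81 and 11.4 FPKM in the vehicle libraries and at 55.1, 36.2, 0.670 and 32.0 FPKM in the LIT927 libraries. Its low libraries were again the replicates numbered 3. The means were 16.8 ± 13.5 FPKM (SD, n = 3) and 31.0 ± 22.6 FPKM (SD, n = 4). On the log2 scale they differed by 0.32 (SE 1.199; 95% interval -2.47 to 3.10; exact permutation p = 0.914). Ptgs2 exceeded Ptgs1 by 4.59-fold to 8.56-fold within the 5 libraries outside the uroplakin-high pair. Within the pair it was the lower of both, at 0.290 and 0.605 of Ptgs1.

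Ptges encodes the inducible, membrane-bound synthase of prostaglandin E (chromosome 2, 30889471 to 30929863, minus strand). It was at 135, 27.3 and 51.8 FPKM with vehicle and at 300.3, 229, 11.1 and 162 FPKM with LIT927. In the libraries of LIT927 replicates 1, 2 and 4 it was above every vehicle library, and in LIT927 replicate 3 below every one. The log2 difference was 0.88 (SE 1.13; 95% interval -1.74 to 3.50; exact permutation p = 0.571). Ptges2 encodes another enzyme described as a prostaglandin E synthase. It was at 10.6, 7.51 and 6.15 FPKM against 10.4, 7.51, 4.96 and 9.45 FPKM. This was the steadiest member: its range over the libraries was 2.14-fold, and the log2 difference was -0.01 (SE 0.30; 95% interval -0.70 to 0.67).

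Ptgds and Hpgds encode unrelated enzymes that both make prostaglandin D. Ptgds, the lipocalin type, is also secreted as a carrier protein in the male reproductive tract and the brain (chromosome 2, 25466709 to 25470046, minus strand). It was at 12.3, 7.83 and 22.05 FPKM with vehicle and at 48.7, 81.0, 12.1 and 37.3 FPKM with LIT927. The libraries of LIT927 replicates 1, 2 and 4 lay above every vehicle library, and LIT927 replicate 3 lay among them. The means were 14.0 ± 7.27 FPKM (SD, n = 3) and 44.8 ± 28.6 FPKM (SD, n = 4), and the log2 difference was 1.44 (SE 0.62; 95% interval 0.0068 to 2.88). Its unadjusted limma p was 0.0492, where 3.68% of all genes were under 0.05 in either direction and 0.718% were so and higher with LIT927, 2.96% lower. It did not pass after adjustment (limma adjusted p = 0.998; exact permutation p = 0.143). Hpgds, the form of mast cells and other leukocytes, was at 0.517, 0.191 and 0.226 FPKM against 0.259, 0.282, 0.0698 and 0.143 FPKM, on 9 to 70 fragments. Its log2 difference was -0.14 (SE 0.11; exact permutation p = 0.343).

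Ptgis encodes prostacyclin synthase, an enzyme of vessel walls and other stroma (chromosome 2, 167191805 to 167240604, minus strand). It was at 15.8, 9.52 and 6.201 FPKM with vehicle and at 6.65, 5.08, 2.43 and 9.16 FPKM with LIT927. The groups overlapped, with vehicle replicate 1 highest and LIT927 replicate 3 lowest. The log2 difference was -0.77 (SE 0.43; 95% interval -1.78 to 0.24; exact permutation p = 0.20). Tbxas1 encodes thromboxane synthase, found in platelets and macrophages (chromosome 6, 38875404 to 39084585, plus strand). It was at 0.0676, 0.0250 and 0.0450 FPKM against 0.0113, 0.0146, 0.0115 and 0.0220 FPKM. Every LIT927 library was below every vehicle library, as in 2.12% of all genes (1.08% were the reverse, 3.2% either). Tbxas1 was the only such member. The exact permutation p was 0.0286, the smallest that 7 libraries can give, while limma gave a log2 difference of -0.04 (SE 0.03; adjusted p = 0.998). The values rest on 86, 32 and 60 fragments with vehicle and 14, 18, 14 and 29 with LIT927. The gene length implied by the deposited values, 37763 bases, exceeds the 9094 bases of its GENCODE exons, so its FPKM is low for its fragments.

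Slco2a1 encodes the prostaglandin transporter, which takes prostaglandins up into cells (chromosome 9, 102988712 to 103096002, plus strand). It was at 158, 20.4 and 43.1 FPKM with vehicle and at 328, 156, 2.51 and 143 FPKM with LIT927. The log2 difference was 0.43 (SE 1.53; 95% interval -3.12 to 3.98; exact permutation p = 0.886). Hpgd encodes the 15-hydroxyprostaglandin dehydrogenase that starts breakdown (chromosome 8, 56294585 to 56321043, plus strand). It was at 240.3, 42.7 and 79.7 FPKM against 423, 209.6, 21.7 and 198 FPKM. For both genes LIT927 replicate 1 was highest and LIT927 replicate 3 lowest. The log2 difference of Hpgd was 0.58 (SE 1.02; 95% interval -1.78 to 2.94; exact permutation p = 0.686).

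Across the list, 6 members had a higher mean log2 level with LIT927 and 4 a lower one, where 55.5% of all genes were higher. The median difference was 0.37 over the members and 0.02 over all genes. The member median was not stable. Leaving out 1 library at a time gave -0.10 (without vehicle replicate 3) to 1.47 (without LIT927 replicate 3). None of the 10 passed the test (0 at limma adjusted p under 0.05, 1 at unadjusted p under 0.05), nor did any of the 16019 genes (0% called; 589 at unadjusted p under 0.05). The intervals of Ptgs2, Slco2a1, Ptgs1, Ptges and Hpgd each reached at least 2.94 upwards and -1.74 or further downwards, so these libraries do not show that the groups were alike.

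Without LIT927 replicate 3 the differences grew, to 2.78 for Ptgs2, 1.95 for Ptgds, 1.93 for Ptges, 1.88 for Slco2a1, 1.47 for Ptgs1 and 1.46 for Hpgd. Then 4 of the 10 members, Ptgds, Ptges, Ptgs1 and Slco2a1, had an unadjusted p under 0.05, as 7.55% of all genes did, and 0 passed after adjustment (smallest limma adjusted p among members 0.366, for Ptgds). Without vehicle replicate 3 the signs turned for Ptgs2 (-0.86), Slco2a1 (-0.23) and Ptgs1 (-0.14). Without both replicates numbered 3, the differences were 0.9985 for Ptgs2, 1.01 for Ptgs1, 1.40 for Ptges, 1.22 for Slco2a1, 0.90 for Hpgd and 1.62 for Ptgds, with 0 members past the adjusted threshold and a median of 0.12 over all genes. With libraries also scaled by median of ratios that median was -0.0035, and the 6 differences were 0.76, 0.79, 1.17, 0.99, 0.66 and 1.38. Both of these fits keep vehicle replicate 4, which was high in Svs1, while no LIT927 library high in Svs1 remains. With libraries weighted by how well they follow the model, 1 member, Ptgds (2.39), passed after adjustment, beside 2.91% of all genes, and 6 of 10 were under 0.05 unadjusted, beside 27.2%.

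**Figure D2:**
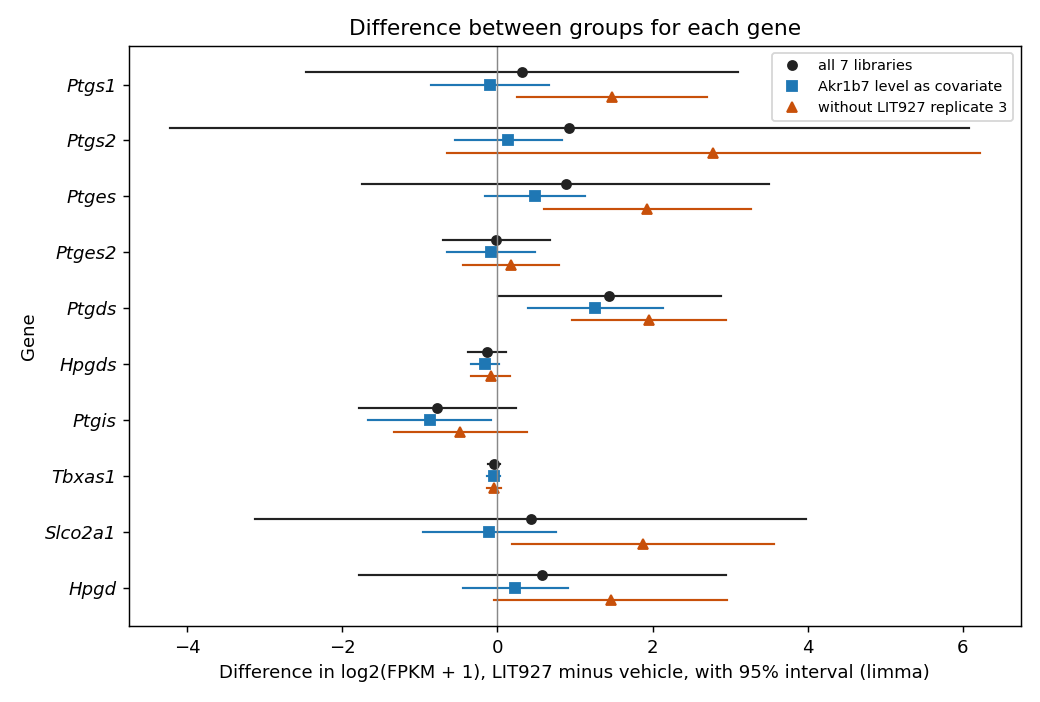
Difference in log2(FPKM + 1), LIT927 minus vehicle, for the 10 genes with its 95% interval from limma: all 7 libraries (black circles), with the Akr1b7 level as a covariate (blue) and without LIT927 replicate 3 (orange). The widest interval, of Ptgs2, runs from -4.22 to 6.07 with all libraries and from -0.55 to 0.83 with the covariate. Akr1b7 is among the 3 genes most like Ptgs2 in these same libraries, so this narrowing follows from the choice of covariate.

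Ptgs2 varied between libraries like Serpina1f, Crisp1 and Akr1b7, while Ptgs1, Slco2a1, Ptges and Hpgd had other nearest genes. By a rule, the 3 genes most alike in log2(FPKM + 1) over the 7 libraries were taken among 11060 genes with a mean of at least 1 FPKM, for the 8 members that themselves reach that mean. Hpgds and Tbxas1 do not and have no such genes. For Ptgs2 these were Serpina1f (Pearson r = 0.998), Crisp1 (r = 0.995), a secreted protein of the epididymis, and Akr1b7 (r = 0.994), known as the mouse vas deferens protein and also described as a prostaglandin F synthase. Without the uroplakin-high pair r was 0.983, 0.950 and 0.967 over 5 libraries. For Ptgs1 the nearest gene was another member, Slco2a1 (r = 0.999, and 0.994 without the pair), followed by Pcp4 and Fxyd4 (r = 0.997 each). For Slco2a1 they were Ptgs1, Fxyd4 and Alad, for Hpgd they were Dpp6, Crip1 and Heyl, and for Ptges they were Rasgef1b, Sbk1 and Sphk1 (r = 0.996 to 0.999). These correlations describe 7 libraries, in which many genes vary together, and they were not tested.

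Akr1b7 was at 8408, 84.5 and 1597 FPKM in vehicle replicates 1, 3 and 4 and at 17099, 8867, 15.9 and 5998 FPKM in LIT927 replicates 1 to 4. Its low libraries were those low in Ptgs2. Ptgs2 amounted to 3.28%, 2.33% and 3.29% of the Akr1b7 level with vehicle and to 2.32%, 2.01%, 2.54% and 3.35% with LIT927. The share thus varied 1.67-fold while the Ptgs2 level varied 977-fold. Of 10968 other genes, 2 kept as narrow a ratio to Akr1b7. The ratio of Ptgs2 to Crisp1 varied 1.88-fold, from 14.6% to 27.3%. Akr1b7 and Crisp1 were among 6 reference genes chosen after values were seen.

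The other co-varying members kept a narrow ratio to Akr1b7 where Akr1b7 was abundant, and a wider one over all 7 libraries. Even over all 7, few of 10968 other genes kept as narrow a ratio: 29 for Slco2a1, 57 for Ptgs1, 99 for Ptges and 121 for Hpgd. Over the 5 libraries outside the uroplakin-high pair, Slco2a1 was 1.76% to 2.70% of Akr1b7, Ptgs1 0.322% to 0.717%, Ptges 1.61% to 3.25% and Hpgd 2.36% to 4.99%. In vehicle replicate 3 and LIT927 replicate 3, these shares were 24.1% and 15.8% for Slco2a1, 8.05% and 4.20% for Ptgs1, 32.3% and 69.5% for Ptges and 50.5% and 136% for Hpgd. Over all 7 libraries the ratio varied more than the level for Ptges (43.3-fold against 27.1-fold) and Hpgd (57.7-fold against 19.5-fold), and less for Slco2a1 (13.7-fold against 131-fold) and Ptgs1 (25.0-fold against 82.3-fold). Ptges2, by contrast, was steady in level while its ratio to Akr1b7 varied 512-fold. Over the 5 libraries outside the pair, the ratio to Akr1b7 ranged 1.53-fold for Slco2a1 and 1.67-fold for Ptgs2. The ratio to Crisp1 there ranged 1.22-fold for Slco2a1, 1.57-fold for Ptges, 1.64-fold for Hpgd, 1.80-fold for Ptgs1 and 1.88-fold for Ptgs2.

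**Figure D3:**
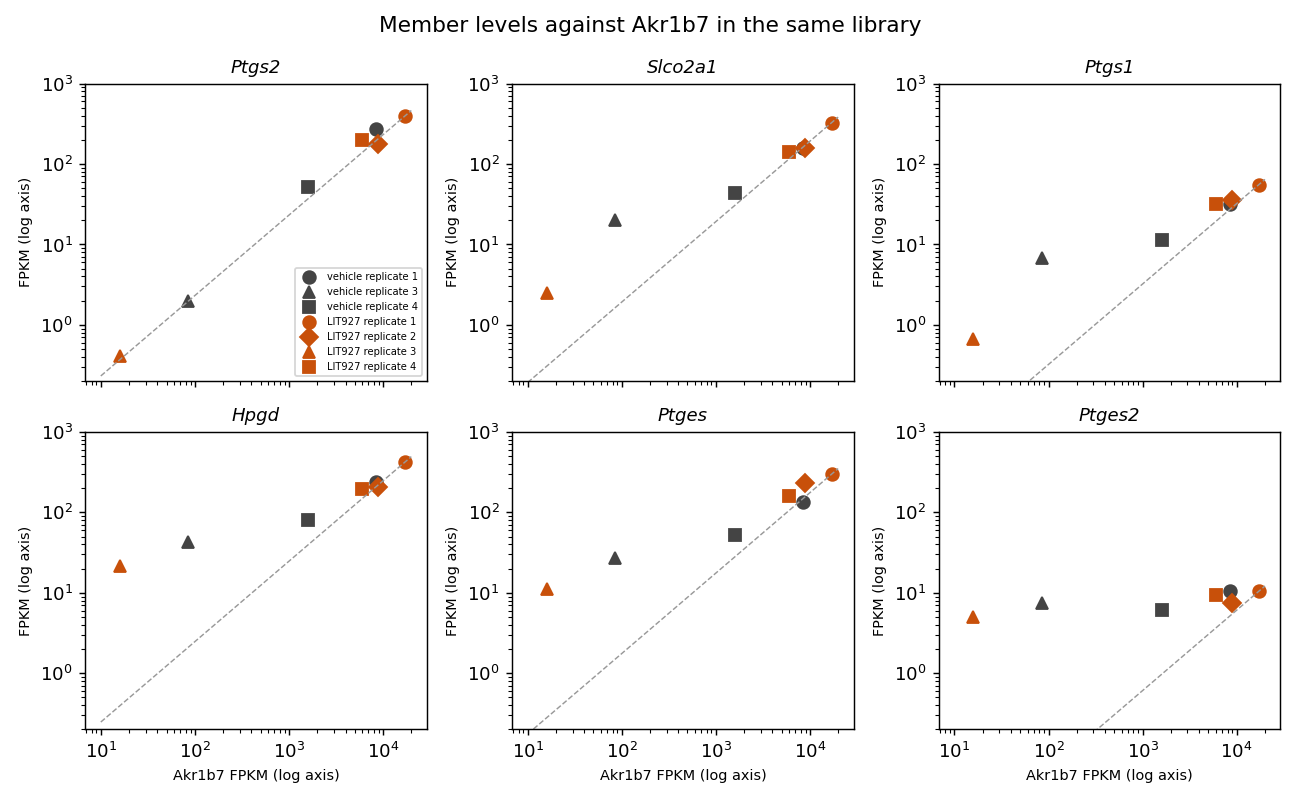
FPKM of 6 genes against the FPKM of Akr1b7 in the same library (both axes log); symbols and colours stand for libraries, and the dashed line is the constant ratio found in LIT927 replicate 1. Ptgs2 stays near the line in all 7 libraries, Slco2a1, Ptgs1, Hpgd and Ptges leave it in the pair with little Akr1b7, and Ptges2 is nearly flat.

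The markers of vas deferens and epididymis did not all follow Ptgs2. All 5 that were measured of the 8 in the list had a higher mean with LIT927, and their summed level was 98.5 to 9419 FPKM with vehicle and 20.5 to 19621 FPKM with LIT927, most of it Akr1b7. Defb2, a beta-defensin, was the only one with an unadjusted p under 0.05 (0.0281; limma adjusted p = 0.998), at 0.973, 1.65 and 3.16 FPKM against 8.53, 12.5, 1.84 and 11.1 FPKM. It was lowest in vehicle replicate 1, where Ptgs2 and Akr1b7 were abundant. Of the others Lcn5, an epididymal lipocalin, was listed at 0 in vehicle replicate 3, and Adam7 was under 0.5 FPKM in every library. With the Akr1b7 level as a covariate, added after values were seen, the difference was 0.14 for Ptgs2 (95% interval -0.55 to 0.83), -0.10 for Slco2a1, -0.10 for Ptgs1, 0.23 for Hpgd and 0.49 for Ptges. With Crisp1 instead it was -0.03, -0.21, -0.18, 0.16 and 0.40. Akr1b7 and Crisp1 are among the 3 genes most like Ptgs2 in these same libraries, so the small Ptgs2 differences follow from that choice. Akr1b7 itself differed by 0.92 (LIT927 minus vehicle), so its fit may also take away a difference between the groups. Ptgds kept a difference of 1.26 (95% interval 0.39 to 2.13; unadjusted p = 0.0104) with Akr1b7 and 1.22 with Crisp1, and Ptgis one of -0.87 (unadjusted p = 0.0343) with Akr1b7. These were 2 of the 10 members under 0.05 unadjusted, beside 7.03% of all genes (6.96% with Crisp1, also 2 members), and neither passed after adjustment (limma adjusted p = 0.567 and 0.693). In bulk tissue, fewer cells of a type and less RNA per cell cannot be told apart.

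Ptgds had a pattern of its own. It was highest in LIT927 replicate 2, at 81.0 FPKM, where Akr1b7 was at about the level of vehicle replicate 1, in which Ptgds was at 12.3 FPKM. The genes most like it were Plekhg4 (r = 0.981), Hcar1 (r = 0.976) and Defb11 (r = 0.972), a beta-defensin. Defb11 was at 0.263, 0 and 0.752 FPKM with vehicle and 3.61, 4.60, 0 and 3.21 FPKM in LIT927 replicates 1, 2, 3 and 4. Markers of leptomeningeal and glial cells, which also express Ptgds, were listed too. All 5 measured had a lower mean with LIT927, and they summed to 1.54 to 16.2 FPKM with vehicle and 1.78 to 4.81 FPKM with LIT927. These sums overlapped, and the part of such cells in the Ptgds values was not tested.

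The genes nearest to Ptgis were Col6a2 (r = 0.999), Fstl1 (r = 0.997) and Lrp1 (r = 0.997), the first a collagen chain of connective tissue. Its ratio to Acta2, smooth muscle actin, was 0.859%, 1.42% and 1.24% with vehicle and 0.699%, 0.805%, 1.88% and 0.838% with LIT927, a 2.70-fold range where the level ranged 6.50-fold, and 619 of 10968 other genes kept as narrow a ratio. Its ratio to Csf1r, the macrophage growth factor receptor, was narrower, ranging 2.22-fold, and 82 other genes kept as narrow a ratio. All 7 smooth muscle markers and all 8 endothelial markers had a lower mean with LIT927. Their summed levels were 2811 to 9981 against 855 to 5652 FPKM for muscle and 26.1 to 101 against 5.76 to 47.7 FPKM for endothelium. The 7 fibroblast markers were lower too, at sums of 86.1 to 470.4 against 68.5 to 229 FPKM, and no marker of the 3 lists was at 0 in any library. Their part in the Ptgis values was not tested.

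Tbxas1 and Hpgds, as genes of leukocytes, were set beside leukocyte markers. All 6 pan-leukocyte markers had a lower mean with LIT927, with sums of 29.3 to 83.2 FPKM with vehicle and 13.3 to 32.9 FPKM with LIT927, of which 4 had an unadjusted p under 0.05, beside 2.96% of all genes lower with LIT927, and 0 passed after adjustment. A lower mean with LIT927 was also seen in 9 of 10 macrophage markers (137 to 393 against 47.0 to 145 FPKM). The same held for 5 of 6 mast cell markers (5.70 to 21.7 against 2.90 to 10.6 FPKM). None of these markers was at 0 in any library. Of them 6 macrophage and 0 mast cell markers had an unadjusted p under 0.05, and 0 passed after adjustment. The platelet markers were lower in 4 of 5, at sums of 3.56 to 11.0 against 1.95 to 6.01 FPKM. Tbxas1 was 0.641%, 0.585% and 0.729% of Csf1r with vehicle and 0.372%, 0.480%, 0.794% and 0.514% with LIT927. On this ratio the groups overlapped, unlike on the level. Hpgds was 3.66% to 4.91% of Csf1r with vehicle and 3.33% to 9.27% with LIT927. How far leukocyte content enters either level was not tested.

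**Figure D4:**
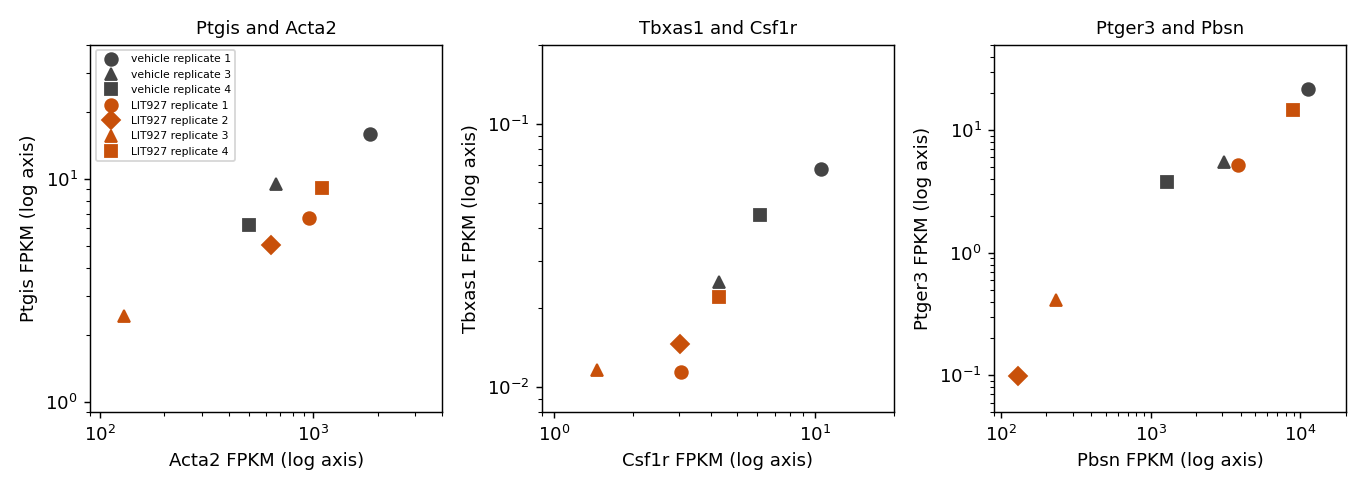
Ptgis against Acta2, Tbxas1 against Csf1r and Ptger3 against Pbsn, in FPKM on log axes, with 1 point per library. Tbxas1 varied 5.96-fold and its ratio to Csf1r 2.13-fold; Ptger3, the gene of a prostaglandin E receptor, varied 218-fold and its ratio to Pbsn 3.85-fold.

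The remaining genes of the pathway were taken from lists. Upstream, genes that release arachidonic acid from membrane lipids or the endocannabinoid pool had a higher mean in 5 and a lower mean in 2 of 7 measured, and 0 passed. Pla2g4a, the cytosolic phospholipase that supplies cyclooxygenases, was at 15.4, 8.82 and 6.71 FPKM with vehicle and 30.6, 19.8, 6.002 and 14.1 FPKM with LIT927. Mgll, which frees arachidonic acid from a monoacylglycerol, was at 65.5, 18.7 and 12.9 against 102, 49.2, 3.76 and 44.5 FPKM. Both were highest in LIT927 replicate 1 and lowest in LIT927 replicate 3, like the cyclooxygenases.

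Other enzymes, exporters and reductases of prostaglandins were higher in 7 and lower in 4 of 11 measured, and 0 passed. Ptgr1, a reductase of the breakdown path, was at 88.1, 45.9 and 40.04 FPKM against 169, 90.3, 49.4 and 72.2 FPKM. Slco2b1, an organic anion carrier, had the smallest unadjusted p of this list (0.0567), at 3.06, 1.45 and 0.916 FPKM against 0.803, 0.652, 0.338 and 1.17 FPKM. Abcc4, an exporter of prostaglandins, was at 4.44, 5.33 and 1.43 FPKM against 1.40, 0.629, 4.55 and 3.23 FPKM. The groups overlapped for all 11.

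Receptor genes were low beside the synthetic genes. Of 8 measured, 3 reached 1 FPKM in any library, all 8 had a lower mean with LIT927, and 0 passed (smallest unadjusted p = 0.147, for Ptger4). Ptger1, a prostaglandin E receptor, was at 1.95, 1.58 and 0.955 FPKM against 1.06, 1.09, 1.07 and 1.45 FPKM. Ptger4, another receptor of prostaglandin E, was at 1.24, 0.444 and 0.622 FPKM against 0.552, 0.534, 0.140 and 0.5 FPKM. Ptgir, the prostacyclin receptor, stayed at 0.650 FPKM or below. Ptger3 was the exception in level, at 21.5, 5.502 and 3.77 FPKM with vehicle and 5.18, 0.0985, 0.416 and 14.6 FPKM with LIT927. It did not follow the cyclooxygenases: LIT927 replicate 2 had 178 FPKM of Ptgs2 and the lowest Ptger3.

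Genes known to act on Ptgs2 expression were given as a list of 12, with 9 lower and 3 higher means and 0 passing. Il1b, an inducer of Ptgs2, was at 1.31, 0.392 and 0.648 FPKM against 0.497, 0.542, 0.0919 and 0.529 FPKM. Like Ptgs2, Il1b was lowest in LIT927 replicate 3 and next lowest in vehicle replicate 3. It was highest in vehicle replicate 1, where Ptgs2 was at 275 FPKM, while Ptgs2 was highest in LIT927 replicate 1, at 396 FPKM. Any part of these genes in the Ptgs2 values was not tested.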

How the data were processed

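RNA from 7 samples was analysed, 3 with vehicle and 4 with LIT927 by the treatment in the labels. Per the submitters' processing notes, reads were handled with fastp, HISAT2 and HTSeq on mm10. No source used here states versions, settings, strandedness, gene annotation or filters, nor how reads shared by paralogs such as Akr1b7 and Akr1b8 were counted, so Akr1b7 levels carry that uncertainty. The values deposited by the authors are FPKM. The file headers say only expression, so the unit was read from the values: low values are whole multiples of a step set by gene and library. Whole fragments were recovered from these steps for 16018 of 16019 genes (within 0.01, or 3e-08 of the count where larger). FPKM is relative to the whole library, so a few abundant secretory genes lower all other values.

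Groups were compared with limma 3.58.1 (R 4.3.3), fitted to log2(FPKM + 1) with a variance trend, no covariate and no filter, with Benjamini-Hochberg adjustment over all 16019. This scale understates changes of low genes. Exact permutation tests cover the 35 divisions of the libraries. The code was tested on simulated data drawn from a shared mean profile, which lacked the large differences between libraries seen here. Coordinates come from GENCODE M21 (GRCm38, mm10) and promoters from RefSeq (GRCm38.p6). Members, lists and alternatives were chosen with earlier results of these data known. All members are named; pathway genes follow fixed lists, from which examples were chosen after values were seen. The labels give no batch. Figures were made with Python 3.11.15 and matplotlib 3.10.9.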

Additional observations from a re-analysis of the deposited data

How the results depend on the processing

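With limma, 0 genes and 0 members were called in the main test and in every alternative but library weights, which called 466 genes and 1 member (Ptgds, difference 2.39, limma adjusted p = 0.0487). Those weights ran from 0.181 to 3.799 and were highest for LIT927 replicate 1 and vehicle replicate 3. They were lowest for vehicle replicate 4, followed by LIT927 replicate 3 (0.269). With them the sign turned for Ptges2 (0.22) and Hpgds (0.0055). REML weights did not converge and were not used. Ptgds, Ptges, Hpgd, Ptgis and Tbxas1 kept their direction in every alternative run. Leaving out 1 library at a time gave -0.22 to 1.47 for Ptgs1, -0.86 to 2.78 for Ptgs2, -0.31 to 1.88 for Slco2a1, -0.17 to 0.18 for Ptges2, 0.02 to 1.46 for Hpgd, 0.35 to 1.93 for Ptges, 1.07 to 1.95 for Ptgds and -1.07 to -0.46 for Ptgis. The sign also turned for Ptges2 without both uroplakin-high libraries (0.14), for Ptgs1 (-0.18), Ptgs2 (-0.0317) and Slco2a1 (-0.21) with the Crisp1 covariate, and for Ptgs1 (-0.10) and Slco2a1 (-0.10) with the Akr1b7 covariate. The cause was not tested.

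Replicate numbers are shared between groups, but same-numbered libraries did not all deviate together (r = 0.565, 0.70 and -0.238 for numbers 1, 3 and 4), so no pairing was assumed. With the replicate block, which leaves out LIT927 replicate 2, 0 genes and 0 members were called, and the difference was -0.0207 for Ptgs1, 0.0034 for Ptges2 and 1.07 for Ptgds. Median-of-ratios or upper-quartile scaling moved the median of all genes to 0.0009 and -0.01 from 0.02 and turned no member's sign. On fragments with voom, Tbxas1 differed by -1.54, against -0.04 on the FPKM scale. The minimum of 1 FPKM in 3 libraries left out Hpgds and Tbxas1. Hpgds and Tbxas1 rest on few fragments.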

Other observations

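Ptger3, which encodes a prostaglandin E receptor, was 0.190%, 0.178% and 0.294% of the Pbsn level in vehicle replicates 1, 3 and 4 and 0.135%, 0.0763%, 0.179% and 0.163% in LIT927 replicates 1 to 4. Pbsn itself was at 11311, 3096 and 1283 FPKM with vehicle and at 3823, 129, 233 and 8963 FPKM with LIT927. The ratio varied 3.85-fold while Ptger3 varied 218-fold, and 14 of 10968 other genes kept as narrow a ratio to Pbsn. Akr1b3, an aldose reductase also described as a prostaglandin F synthase, was at 588, 292 and 273 FPKM with vehicle and at 259, 136, 144 and 548 FPKM with LIT927. It was highest in the pair of libraries highest in Pbsn, whereas its relative Akr1b7 was highest in LIT927 replicate 1. Pbsn was chosen as a reference after values were seen.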
